A study of Mus musculus with 6 samples.

Results

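Depletion of the long noncoding RNA Pnky (shPnky) was set directly against depletion of Ptbp1 (shPtbp1) in cultured mouse neural stem cells, over the exon bins that the authors' exon usage test had called in both knockdowns. An exon bin is an exon or a piece of one, and each knockdown has a table of the bins whose usage within their gene differed from a shared control. Bins were chosen by row name, as those present in both tables and thus selected on the authors' adjusted p against control, which left 118 bins in 71 genes, out of 1089 bins in 702 genes listed in either table. They are 47.4% of the 249 bins listed for shPnky and 12.3% of the 958 listed for shPtbp1. In 18 genes at least 2 bins were joined (65 bins), and in 53 genes only 1 was. For the control libraries, the tables hold identical counts in 118 of 118 joined bins. The tables keep bins with an adjusted p under 0.01 in the authors' test. Bins outside the tables were not analysed here.

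All libraries were poly(A)-selected and strand-specific and came from cultured cells of the ventricular-subventricular zone, the stem cell niche along the forebrain ventricles, derived from C57/B6 mice at postnatal day 5 to 7. The medium contained 5% fetal bovine serum, N2 supplement, bovine pituitary extract, and 20 ng/mL each of EGF and FGF. Every cell population, controls included, carried a hairpin RNA in the PSICO-R vector and was sorted for GFP, or for GFP and mCherry together; which marker went with which hairpin is not stated in the labels. The hairpins were directed against Pnky (2 libraries), against Ptbp1 (2 libraries) and, for shCtrl (2 libraries), against luciferase. Separate cultures or animals are not stated for the libraries of a group, so p-values here reflect the variation among these libraries alone, and that variation may be technical.

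PTBP1 is an RNA-binding protein that binds pyrimidine-rich sequence and represses many neuronal exons in stem cells and non-neuronal cells. Pnky is a neural long noncoding RNA known to interact with PTBP1. Because both act in one setting, a direct comparison asks at which bins the 2 knockdowns left the cells in different states, whatever the control level was.

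The targeted genes allowed only a partial check. Bin 13 of Ptbp1 held 4967 and 4961 reads in shPtbp1 against 22334 and 19594 in shCtrl. Bin 4 of the paralog Ptbp2, a known PTBP1 target, held 673 and 700 against 313 and 290. Another Ptbp2 bin, whose row carries no number, held 9075 and 9007 against 5760 and 5423. These reads are not scaled. Neither gene is listed for shPnky and Pnky is in neither table, so the Pnky knockdown could not be checked here and Ptbp1 could not be compared directly. The reads in joined bins summed to 1081551 and 770455 in the shPnky libraries and to 845020 and 831810 in the shPtbp1 libraries. These sums are not library sizes, and the scaling of counts rests on the joined bins only.

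Across the joined bins, 73 of 118 (61.9%) differed in scaled count between shPnky and shPtbp1 at an adjusted p under 0.05 (edgeR quasi-likelihood test, Benjamini-Hochberg). Of these, 37 were higher in shPnky (31.4%) and 36 lower (30.5%). With counts scaled by their plain sum in place of TMM, 21 bins were higher and 49 lower, because that scaling moved the median log2 difference of all bins to -0.11. Of the 73 calls, 57 were shared with that scaling. Most differences were small. The median absolute log2 difference was 0.21, 26 bins reached 0.5 in size and 7 bins reached 1. The spread is estimated over all bins together, which is how 2 libraries against 2 can give small p-values. The number of calls was sensitive to single libraries: without the first shPnky library 48 bins passed, and 46 of the 73 calls held whichever library was left out. In 96 bins (81.4%) the 2 shPnky and the 2 shPtbp1 libraries did not overlap, 24 of them among the 45 bins that missed the threshold. The median size was 0.22 in bins under 1000 scaled reads and 0.20 in bins of 10000 or more, but 13 of the 43 former bins and 1 of the 19 latter reached 0.5.

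**Figure D1:**
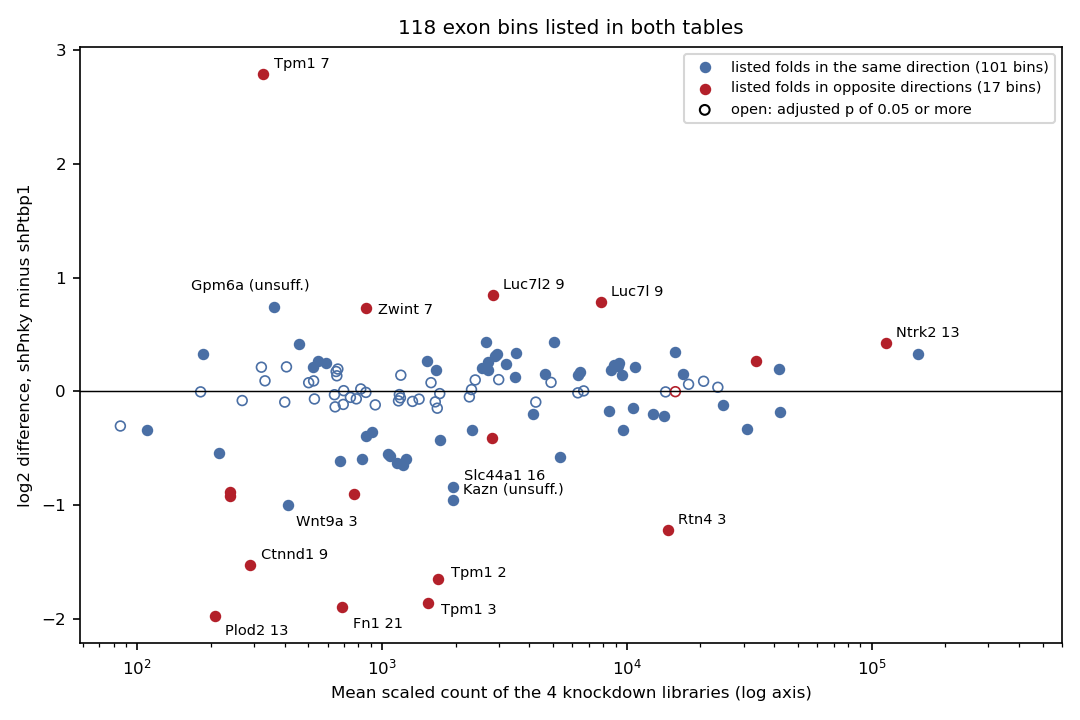
Log2 difference in scaled count (shPnky minus shPtbp1, vertical axis) against the mean scaled count of the bin (log axis) for the 118 joined bins. Red points are the 17 bins whose listed folds against control have opposite signs, blue points the other 101, and open symbols bins with an adjusted p of 0.05 or more; the 7 differences of at least 1 in size are all red.

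The authors' listed usage folds divide the bins. In 101 bins (57 genes) the listed fold had the same sign in both tables, and in 17 bins (14 genes) opposite signs. Of the 17, 11 bins in 10 genes were used more in shPtbp1 and less in shPnky than in shCtrl, and 6 bins the other way. Those 17 were called in opposite directions against the same control libraries, so a difference between the knockdowns was built into their choice: 16 of 17 passed the direct test, nothing is read from that count, and their values are given without p. The other 101 bins passed in 57 cases, 31 higher and 26 lower in shPnky, with a median absolute log2 difference of 0.19 and none at 1 or above. Bins with higher listed usage in both knockdowns (56) were more often lower in shPnky (16) than higher (9), and 31 did not pass. Bins with lower listed usage in both (45) were higher in shPnky in 22 cases and lower in 10. No test of these splits was made, since bins of a gene share reads. A bin is named here by its gene and the number in its row name, and a gene's first row, which carries no number, is called its unsuffixed bin. Levels are reads after scaling to the 6 libraries by TMM, and each difference is a log2 difference of counts, with its standard error (SE). On which side of the control a level lay was not checked under other scalings.

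The widest gap was in Tpm1. Tpm1 (Entrez 22003) encodes a tropomyosin, which coats actin filaments, and its mutually exclusive exons are classical targets of PTBP1. Bin 7 of Tpm1 stood at 605 and 537 scaled reads in shPnky, 102 and 63.1 in shPtbp1, and 489 and 453 in shCtrl. It was 6.91-fold higher in shPnky, a log2 difference of 2.79 (SE 0.13). Both shPnky libraries lay above both control libraries and both shPtbp1 libraries far below them. Bins 2 and 3 of Tpm1 had the reverse order. Bin 2 stood at 778 and 873 in shPnky, 2657 and 2476 in shPtbp1 and 1272 and 1330.4 in shCtrl, a log2 difference of -1.65 (SE 0.076). For bin 3 the levels were 617 and 722 in shPnky, 2439.8 and 2388 in shPtbp1 and 1094 and 1169 in shCtrl, and the log2 difference was -1.86 (SE 0.079). In each of the 3 bins the control lay between the knockdowns.

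Fn1 (Entrez 14268) encodes fibronectin, a matrix protein with alternatively spliced segments. Its bin 21 stood at 329 and 251 scaled reads in shPnky, 983 and 1194 in shPtbp1 and 537 and 541 in shCtrl, and was 3.73-fold higher in shPtbp1 (log2 difference -1.90, SE 0.10). Plod2 (Entrez 26432), a lysyl hydroxylase that prepares collagen for cross-linking and is known for an alternative exon, had the largest gap of this direction. Its bin 13 held 86.0 and 82.5 scaled reads in shPnky, 325 and 337 in shPtbp1 and 153 and 139 in shCtrl, a 3.94-fold difference (log2 -1.98, SE 0.12). Ctnnd1 (Entrez 12388) encodes p120 catenin, which binds and stabilises cadherins at cell junctions. Bin 9 of Ctnnd1 was at 162 and 135 in shPnky, 394 and 465 in shPtbp1 and 261 and 259 in shCtrl (log2 difference -1.52, SE 0.11). Limk2 (Entrez 16886), a kinase that inactivates the actin-severing protein cofilin, showed the same order at bin 15, with 162 and 171 in shPnky, 312 and 315 in shPtbp1 and 212 and 228 in shCtrl (log2 difference -0.92, SE 0.11). In all of these the groups did not overlap, and the 2 knockdowns lay on opposite sides of the control.

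Beyond the cytoskeleton, bin 3 of Rtn4 (Entrez 68585), the gene of the endoplasmic reticulum protein and neurite growth inhibitor Nogo, was the most abundant bin with a gap of more than 2-fold. It stood at 9221 and 8541 scaled reads in shPnky, 19851 and 21384 in shPtbp1 and 12854 and 13293 in shCtrl, 2.33-fold higher in shPtbp1 (log2 difference -1.22, SE 0.048). H2afy (Entrez 26914) encodes the histone variant macroH2A1, of which spliced forms differ in their ligand-binding macrodomain. Its bin 3 was at 572 and 503 in shPnky, 964 and 1048 in shPtbp1 and 805 and 793 in shCtrl (log2 difference -0.91, SE 0.088). Bin 1 of U05342 (Entrez 664779) stood at 169.6 in both shPnky libraries, 314 and 308 in shPtbp1 and 209 and 218 in shCtrl (log2 difference -0.88, SE 0.11). Araf (Entrez 11836), a RAF kinase upstream of MEK, was unlike these. Its bin 5 lay under the control in both knockdowns, at 2381 and 2446 in shPnky and 3262 and 3131 in shPtbp1 against 3938 and 3861 in shCtrl, although its listed usage folds have opposite signs. The log2 difference there was -0.41 (SE 0.061).

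Bins used less in shPtbp1 included a pair of genes of U1 snRNP-associated proteins, which take part in the choice of 5′ splice sites. Luc7l bin 9 (Entrez 66978) stood at 10179.8 and 9630.0 scaled reads in shPnky, 5911 and 5562 in shPtbp1 and 8844 and 8927 in shCtrl (log2 difference 0.78, SE 0.050). Luc7l2 bin 9 (Entrez 192196) was at 3751 and 3535 in shPnky, 1949 and 2084 in shPtbp1 and 3585 and 3579.8 in shCtrl (log2 difference 0.85, SE 0.062). The shPnky libraries of Luc7l2 bin 9 overlapped the control, and only shPtbp1 stood apart. Bin 8 of Luc7l2, called in opposite directions too, was nearly level between the knockdowns in count, at 16339.6 and 15287 in shPnky and 16108 and 15449.6 in shPtbp1. The 95% interval of its log2 difference ran from -0.09 to 0.09, and it is the 1 bin of the 17 that did not pass.

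Ntrk2, Zwint and Gfap complete the bins used more in shPnky. Ntrk2 (Entrez 18212) encodes TrkB, the receptor of brain-derived neurotrophic factor. Its bin 13 was at 135640.0 and 127776 scaled reads in shPnky, 96522 and 98564 in shPtbp1 and 98785 and 97835 in shCtrl (log2 difference 0.43, SE 0.041). Here shPnky stood above the other two groups, and the shPtbp1 libraries overlapped the control. Bin 7 of Zwint (Entrez 52696), a kinetochore protein, held 1061 and 1088 in shPnky, 614 and 672 in shPtbp1 and 1351 and 1348 in shCtrl (log2 difference 0.73, SE 0.085). Bin 2 of Gfap (Entrez 14580), the intermediate filament of astrocytes and of these stem cells, held 37119 and 36702 in shPnky, 31573 and 29704 in shPtbp1 and 39472 and 38543 in shCtrl (log2 difference 0.26, SE 0.043). In Zwint and Gfap the counts of both knockdowns lay under the control. Each of these 3 genes had only 1 joined bin. Counts of 1 bin cannot tell a change in the use of the bin from one in the level of the gene. The same holds for all 53 genes with a single joined bin. The listed log2 usage folds were 0.028 in shPnky and -0.019 in shPtbp1 for Ntrk2. In the same order they were 0.129 and -0.358 for Zwint, and 0.047 and -0.031 for Gfap.

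**Figure D2:**
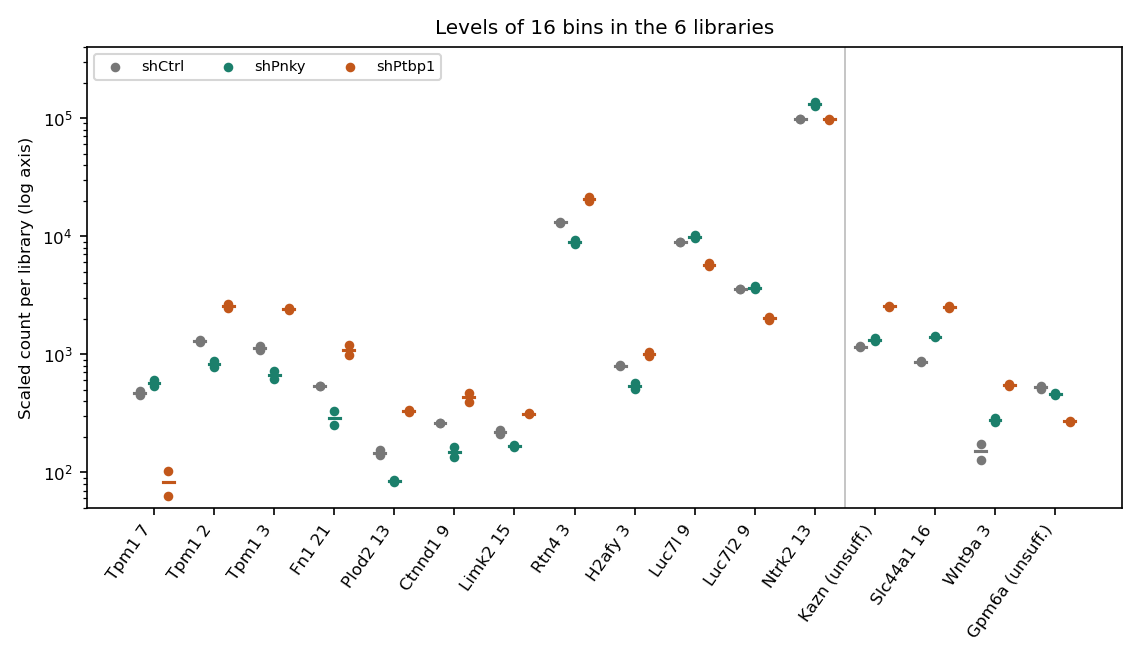
Scaled count (log axis) of 16 bins in each of the 6 libraries, grey for shCtrl, green for shPnky and orange for shPtbp1, with a horizontal bar at the mean of 2 libraries. The 12 bins left of the grey line have opposite listed folds and the 4 bins right of it the same sign in both tables. In Tpm1 bins 2 and 3, Fn1, Plod2, Ctnnd1, Limk2, Rtn4 and H2afy the control lies between shPnky below and shPtbp1 above, whereas in Kazn, Slc44a1 and Wnt9a both knockdowns lie above the control.

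Among bins with listed folds of the same sign in both tables, the widest differences were in bins that stood highest in shPtbp1. The unsuffixed bin of Kazn (Entrez 71529), which encodes the junction-associated protein kazrin, stood at 1299 and 1358 scaled reads in shPnky, 2533 and 2582 in shPtbp1 and 1147 and 1173 in shCtrl. It was 1.93-fold lower in shPnky than in shPtbp1 (log2 difference -0.95, SE 0.068, edgeR adjusted p = 1.74e-18). Slc44a1 (Entrez 100434), a choline transporter, stood at 1424 and 1390.1 in shPnky, 2467 and 2542 in shPtbp1 and 873 and 852 in shCtrl at bin 16 (log2 difference -0.84, SE 0.068, edgeR adjusted p = 1.56e-16). Bin 3 of Wnt9a (Entrez 216795), a secreted Wnt ligand, stood at 269 and 287, 557 and 542, and 173 and 127 in the same order, 1.99-fold lower in shPnky (SE 0.099 on the log2 scale, edgeR adjusted p = 3.03e-13). In these 3 bins shPnky lay between the control and shPtbp1, with no overlap of groups. The listed usage of Wnt9a bin 3 was lower in both knockdowns (-0.08 and -0.06, log2, per the authors' deposited tables) although its counts lay above the control.

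Camta1 (Entrez 100072), a calmodulin-binding transcription activator on the list of PTBP1 targets, held 166 and 188 in shPnky, 232 and 278 in shPtbp1 and 99.8 and 108 in shCtrl at bin 15 (log2 difference -0.54, SE 0.11, edgeR adjusted p = 2.69e-05). Its call was lost without the first shPnky library (log2 difference -0.43, edgeR adjusted p = 0.156) or the second (-0.64, edgeR adjusted p = 0.0624). Bin 3 of Rpl22 (Entrez 19934), a protein of the large ribosomal subunit, was 27151 and 27949 in shPnky and 35191 and 33824 in shPtbp1, on either side of 29641 and 29362 in shCtrl (log2 difference -0.33, SE 0.044, edgeR adjusted p = 2.02e-09). Ribosomal protein genes have many near-identical pseudogene copies, so its reads are uncertain.

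In the other direction, several bins were higher in shPnky than in shPtbp1. Gpm6a (Entrez 234267) encodes a neuronal membrane glycoprotein of growing neurites. Its unsuffixed bin held 465 and 447 scaled reads in shPnky, 268 and 274 in shPtbp1 and 510.1 and 534 in shCtrl, 1.68-fold higher in shPnky (log2 difference 0.74, SE 0.099, edgeR adjusted p = 2.31e-09). Rfxank (Entrez 19727), a subunit of the transcription factor of MHC class II genes, had at its unsuffixed bin 3118 and 2976, 2281 and 2217, and 3722 and 3665 in the same order (log2 difference 0.43, SE 0.061, edgeR adjusted p = 1.37e-08). Tmem30a (Entrez 69981), a subunit of lipid flippases, held 17804 and 17429, 13621 and 13994, and 21522 and 22052 at its unsuffixed bin (log2 difference 0.35, SE 0.045, edgeR adjusted p = 1.51e-09). For these 3 bins the order was shCtrl, shPnky, shPtbp1 from high to low. Ncaph2 (Entrez 52683), a condensin II subunit, differed in that its bin 19 lay above the control in shPnky, at 5754 and 5886, and lay under it in shPtbp1, at 4292 and 4297, against 5250.4 and 5221 in shCtrl (log2 difference 0.43, SE 0.053, edgeR adjusted p = 3.23e-10). Its listed usage was lower in both of the authors' deposited tables. Lcorl (Entrez 209707), a transcription cofactor gene, had an unsuffixed bin above the control in both knockdowns, at 532 and 518 in shPnky, 382 and 402 in shPtbp1 and 325 and 341 in shCtrl (log2 difference 0.42, SE 0.095, edgeR adjusted p = 0.000135). Lcorl bin 1 was also higher in shPnky than in shPtbp1 (log2 difference 0.26, edgeR adjusted p = 0.0116), a call not kept in every setting. It lay under the control in both knockdowns, at 631 and 568 in shPnky, 499.1 and 498.9 in shPtbp1 and 761 and 723 in shCtrl. Neither Lcorl bin passed the test of usage within the gene (edgeR adjusted p = 0.612 for the unsuffixed bin and 0.691 for bin 1). Bin 11 of Pigk (Entrez 329777), the catalytic subunit of the GPI transamidase, was higher in shPnky by a log2 difference of 0.26 (edgeR adjusted p = 0.000203).

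Usage within a gene was then compared through the share of each bin in the reads of the gene's joined bins, which does not depend on the level of the gene or on the scaling of libraries. Of the 65 bins in 18 genes, 14 passed (21.5%, edgeR diffSpliceDGE, Benjamini-Hochberg), 6 with higher usage in shPnky (9.23%) and 8 with lower usage (12.3%). The test sets a bin against the weighted mean of its gene, itself included, so that in a gene of 2 bins the smaller one passes more easily although the shares mirror each other. At the level of genes, 7 of 18 passed (38.9%): Tpm1, Luc7l2, Lrrfip1, Vmp1, Ensa, Kazn and Lamp2. The bins of Tpm1 and Luc7l2 were called in opposite directions against control, and their shares are therefore a description. Of the 14 bins, 3 are in Tpm1 and 1 in Luc7l2, and nothing is read from these passing. Leaving out 1 library reduced the 14 bins to 4 (without the first shPnky library), 6 (first shPtbp1 library) or 8 (second shPtbp1 library), whereas 10 passed without the second shPnky library. The bins called in all settings tried were Lrrfip1 bins 19 and 24, and also Tpm1 bin 7 and Luc7l2 bin 9, whose difference the choice of bins built in.

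In Tpm1, bin 7 took 27.7% ± 3.58 of the reads of 3 joined bins in shPnky, 1.62% ± 0.48 in shPtbp1 and 16.2% ± 1.26 in shCtrl (SD, n = 2 for each). Bin 3 took 32.3% ± 2.13, 47.7% ± 1.09 and 39.0% ± 0.90 in the same order, and bin 2 took 39.9% ± 1.45, 50.7% ± 0.61 and 44.8% ± 0.36 (SD, n = 2). The libraries of the 3 groups did not overlap in any of the 3 bins. With shares over all Tpm1 bins in each knockdown's own table, bins 2 and 3 were higher in shPnky, by 27.6 and 20.7 percentage points. The table for shPtbp1 holds more Tpm1 bins, and the shPnky shares did not change. These values therefore compare unlike denominators, and no direction is read from them. In Luc7l2, bin 9 took 18.7% ± 0.080 in shPnky, 11.3% ± 0.77 in shPtbp1 and 16.4% ± 0.13 in shCtrl (SD, n = 2), and bin 8 the remainder.

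Lrrfip1 (Entrez 16978), which encodes a nucleic acid-binding protein that also binds the actin regulator Flightless, had shares on the same side of the control in both knockdowns, and farther from it in shPtbp1. Its bin 19 took 67.5% ± 0.20 of the reads of 6 joined bins in shCtrl, 56.8% ± 0.26 in shPnky and 49.4% ± 0.68 in shPtbp1 (SD, n = 2). Bin 24 took 18.3% ± 0.13, 24.1% ± 0.18 and 28.3% ± 0.35 in that order (SD, n = 2). With shares over all Lrrfip1 bins in each knockdown's own table, the difference between the knockdowns was 14.3 percentage points for bin 19 and went from -4.19 to -0.25 for bin 24. Those of bins 20 and 21 shrank to -0.075 and -0.098, and that of bin 23 changed sign to 0.0067. Only the shPtbp1 shares changed, as its table lists more Lrrfip1 bins, so these differences compare unlike denominators. Between the knockdowns the usage of bin 19 differed by 0.14 on the log2 scale (edgeR adjusted p = 0.00125) and that of bin 24 by -0.16 (edgeR adjusted p = 0.000801), and the gene as a whole passed (edgeR adjusted p = 6.29e-07). In scaled counts, bin 24 stood at 4329 and 4249 in shPnky, 6526 and 6252 in shPtbp1 and 3493 and 3434 in shCtrl (log2 difference -0.58, SE 0.053, edgeR adjusted p = 1.56e-14). Bins 20 to 23 had count differences of -0.55 to -0.59, close to that of bin 24. The count of bin 19 was lowest in shPnky, with 10091 and 10079 against 11165 and 11099 in shPtbp1 and 12809 and 12772 in shCtrl. Its count call (log2 difference -0.15, edgeR adjusted p = 0.00509) was lost without the first shPnky library (-0.13) or the first shPtbp1 library (-0.14). It was also lost in a setting that left no library out. Over the scalings its log2 difference ranged from -0.25 to -0.10. The usage calls of bins 20, 21 and 23 were also lost without single libraries. Bin 23 lay just inside the usage threshold (edgeR adjusted p = 0.0345) and bin 22 just outside it (0.0610, edgeR), with usage differences of -0.15 and -0.14.

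Kazn, Ensa and Lamp2, each with 2 joined bins, differed in usage as well. In Kazn, bin 7 took 60.2% ± 0.12 of the joined reads in shCtrl, 52.5% ± 0.18 in shPnky and 43.5% ± 0.21 in shPtbp1 (SD, n = 2; edgeR adjusted p for usage = 0.0127). Shares in the 6 libraries were well apart. With an arm of 1 library the usage difference of 0.19 stayed between 0.18 and 0.19, while its edgeR adjusted p was 0.0614 without the first shPnky library, 0.106 without the first shPtbp1 library and 0.0796 without the second. Both Kazn bins were lower in count in shPnky, by -0.95 for the unsuffixed bin and by -0.43 for bin 7 (edgeR adjusted p = 3.43e-07). Ensa (Entrez 56205) encodes endosulfine alpha, an inhibitor of the phosphatase PP2A-B55 in mitosis. Its bin 3 took 23.7% ± 0.56 in shCtrl, 19.5% ± 0.28 in shPnky and 15.7% ± 0.068 in shPtbp1 (SD, n = 2; edgeR adjusted p for usage = 0.00199), a usage difference of 0.22 that was 0.21 without the first shPnky library, where it missed the threshold (edgeR adjusted p = 0.063). Over the bins of each own table its share difference was 5.81 percentage points in place of 3.85, with more bins counted in shPtbp1 only. The 2 bins of Ensa went opposite ways in count. Bin 2 stood at 11959.8 and 11867 in shPnky and 13978 and 13193 in shPtbp1 (log2 difference -0.20, edgeR adjusted p = 0.000233), and bin 3 at 2941 and 2844 against 2591 and 2463 (log2 difference 0.19, edgeR adjusted p = 0.00597). Without either shPnky library the differences were about as large, -0.18 and -0.21 for bin 2 and 0.18 and 0.20 for bin 3, but with 1 library in that arm they missed the threshold (edgeR adjusted p between 0.0576 and 0.0752). Without the second shPtbp1 library that of bin 3 was 0.15 (edgeR adjusted p = 0.11).

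Lamp2, whose spliced last exons give different tails of a lysosomal membrane protein, had shares farther from the control in shPnky than in shPtbp1. Its unsuffixed bin took 25.6% ± 0.56 in shCtrl, 18.7% ± 0.084 in shPnky and 21.4% ± 1.08 in shPtbp1 (SD, n = 2; edgeR adjusted p for usage = 0.0149). Its usage difference of -0.14 was -0.13 without the first shPnky library and -0.14 without the second, where with an arm of 1 library it missed the threshold (edgeR adjusted p = 0.147 and 0.0868). Without the first shPtbp1 library it was -0.10 (edgeR adjusted p = 0.183). In counts, the log2 difference of the unsuffixed bin was -0.09 (edgeR adjusted p = 0.133), and bin 1, called higher in shPnky, lost its call without either shPnky library or the first shPtbp1 library (edgeR adjusted p from 0.0735 to 0.0837).

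**Figure D3:**
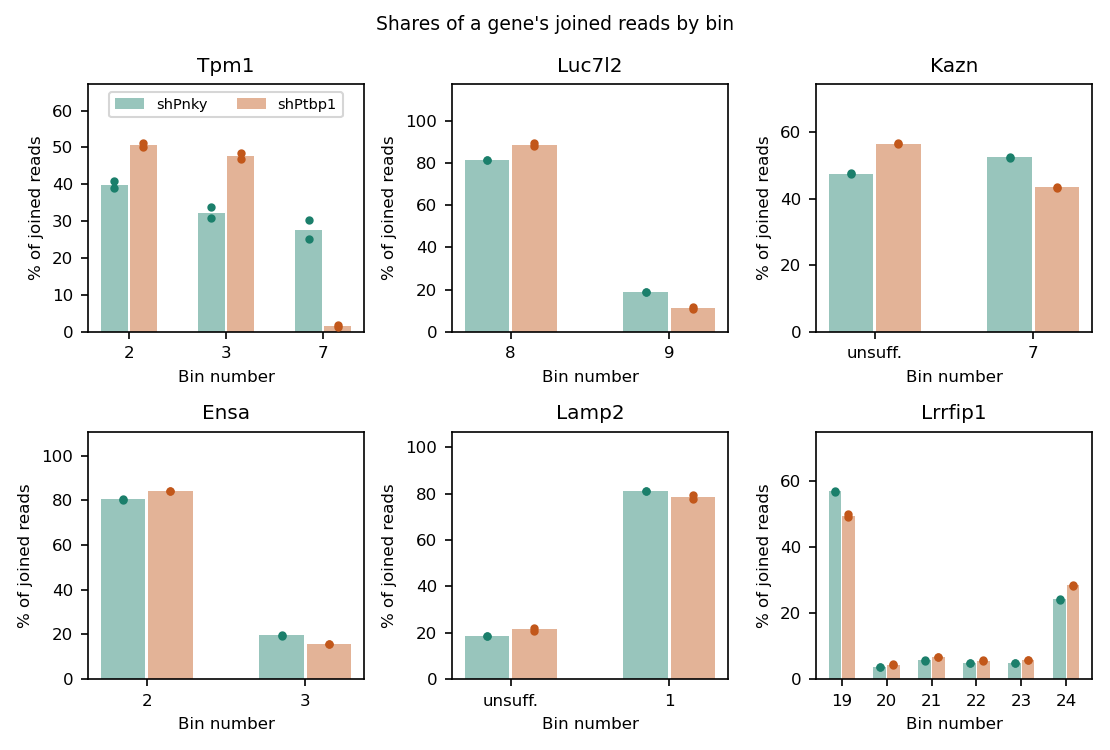
Share of each joined bin in the reads of its gene's joined bins (percent, vertical axis) by bin number for 6 genes, green for shPnky and orange for shPtbp1, with bars at the mean of 2 libraries and 1 point per library. The widest gap is that of Tpm1 bin 7, at 27.7% in shPnky and 1.62% in shPtbp1; in genes of 2 bins the shares mirror each other.

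Vmp1 (Entrez 75909) encodes an endoplasmic reticulum membrane protein needed for autophagosome formation. It had 9 joined bins, and its shares also lay farther from the control in shPnky. The unsuffixed bin took 53.3% ± 0.32 in shCtrl, 44.1% ± 0.43 in shPnky and 47.9% ± 0.40 in shPtbp1 (SD, n = 2). Of the 9 bins, 8 missed the usage threshold in edgeR, the unsuffixed bin among them (edgeR adjusted p = 0.0791). DESeq2 called 8 of the 9, and edgeR with all 6 libraries in the fit called 3. The gene as a whole passed the F test over its bins (edgeR adjusted p = 8.53e-05) but not the Simes test (0.118). Bin 6 passed (8.83% ± 0.71 in shPnky, 7.69% ± 0.16 in shPtbp1, SD, n = 2; edgeR adjusted p = 0.0258), though its share difference of 1.14 percentage points was 0.25 over the bins of each own table, and lost its call without the first shPnky library, where the usage difference fell from 0.14 to 0.08 (edgeR adjusted p = 0.465), without the first shPtbp1 library (0.174) or without the second (0.0656). In scaled counts the unsuffixed bin stood at 8436 and 8685 in shPnky, 10791 and 10742 in shPtbp1 and 13518 and 14199 in shCtrl (log2 difference -0.34, SE 0.048, edgeR adjusted p = 1.40e-08). Bin 1 of Vmp1 differed by the same -0.34 (SE 0.064, edgeR adjusted p = 5.44e-06). The other 7 bins did not pass, and their 95% intervals lay between -0.28 and 0.13.

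Dclk1 (Entrez 13175), a doublecortin-like kinase that binds microtubules, had the most joined bins, 13, and 12 of them did not differ detectably between the knockdowns. Bin 7 took 66.1% ± 0.16 of the joined reads in shCtrl, 52.2% ± 0.18 in shPnky and 54.2% ± 0.32 in shPtbp1, and bin 19 took 21.8% ± 0.18, 31.7% ± 0.43 and 30.3% ± 0.56 (SD, n = 2). None of the 13 bins passed the usage test (smallest edgeR adjusted p = 0.0878). At an unadjusted p under 0.05 there was 1, bin 9, and DESeq2 called 1. In scaled counts, bin 7 stood at 24218 and 23229 in shPnky and 25210.4 and 26265 in shPtbp1, against 39559 and 41610.0 in shCtrl. Its log2 difference of -0.12 (SE 0.043, edgeR adjusted p = 0.0115) was the 1 count call in Dclk1. It was lost without either shPnky library or the second shPtbp1 library (log2 differences of -0.10 to -0.14, edgeR adjusted p between 0.0899 and 0.144), with scaling linked through shCtrl (-0.07) and with the replicate number as a block (-0.12). Bin 19 stood at 14541 and 14285 in shPnky and 13859 and 14945 in shPtbp1, with a 95% interval of the log2 difference from -0.10 to 0.09. Over all 13 bins the intervals stayed between -0.32 and 0.32.

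Taf9, Arpp19 and Pcdh7 each showed count differences without a usage call. Taf9 (Entrez 108143) encodes a subunit of the general transcription factor TFIID. Its bin 3 stood at 9473 and 9759.5 in shPnky, 8103 and 8174 in shPtbp1 and 11729.6 and 12053 in shCtrl (log2 difference 0.23, SE 0.049, edgeR adjusted p = 3.12e-05), and the other 3 bins did not pass. The share of bin 3 was 61.6% ± 0.26 in shPnky and 59.4% ± 0.30 in shPtbp1, against 68.8% ± 0.23 in shCtrl (SD, n = 2). No Taf9 bin passed the usage test in edgeR, adjusted or unadjusted, whereas DESeq2 called 3 of 4. Arpp19 (Entrez 59046) encodes a second inhibitor of PP2A-B55, related to endosulfine. All 4 of its bins were higher in count in shPnky, by log2 differences of 0.21 to 0.34. Bin 3 stood at 11492 and 11693 in shPnky, 9981 and 9973 in shPtbp1 and 8708 and 8751 in shCtrl (log2 difference 0.21, SE 0.047, edgeR adjusted p = 9.91e-05). The calls of the other 3 Arpp19 bins were lost without single libraries, bin 2 for example without the first shPnky library (log2 difference 0.38, edgeR adjusted p = 0.0564). No Arpp19 bin passed the usage test in edgeR at an adjusted or unadjusted p under 0.05, and DESeq2 called 1. In Pcdh7 (Entrez 54216), a protocadherin gene, bin 3 stood at 3371 and 3067 in shPnky, 2439 and 2743 in shPtbp1 and 2119 and 2173 in shCtrl (log2 difference 0.31, edgeR adjusted p = 2.36e-05), a call lost without the first shPnky library (0.25, edgeR adjusted p = 0.121) or the second (0.36, edgeR adjusted p = 0.0576). Pcdh7 bin 1 lay just outside the count threshold (log2 difference 0.20, edgeR adjusted p = 0.0507). Just inside it was bin 1 of Mpzl1, a cell surface glycoprotein (0.21, edgeR adjusted p = 0.0458), whose call was lost without either shPnky library or the second shPtbp1 library.

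Over the 11 genes that did not pass at gene level (39 bins), no bin was called for usage by edgeR, 1 had an unadjusted p under 0.05, and DESeq2 called 5.

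**Figure D4:**
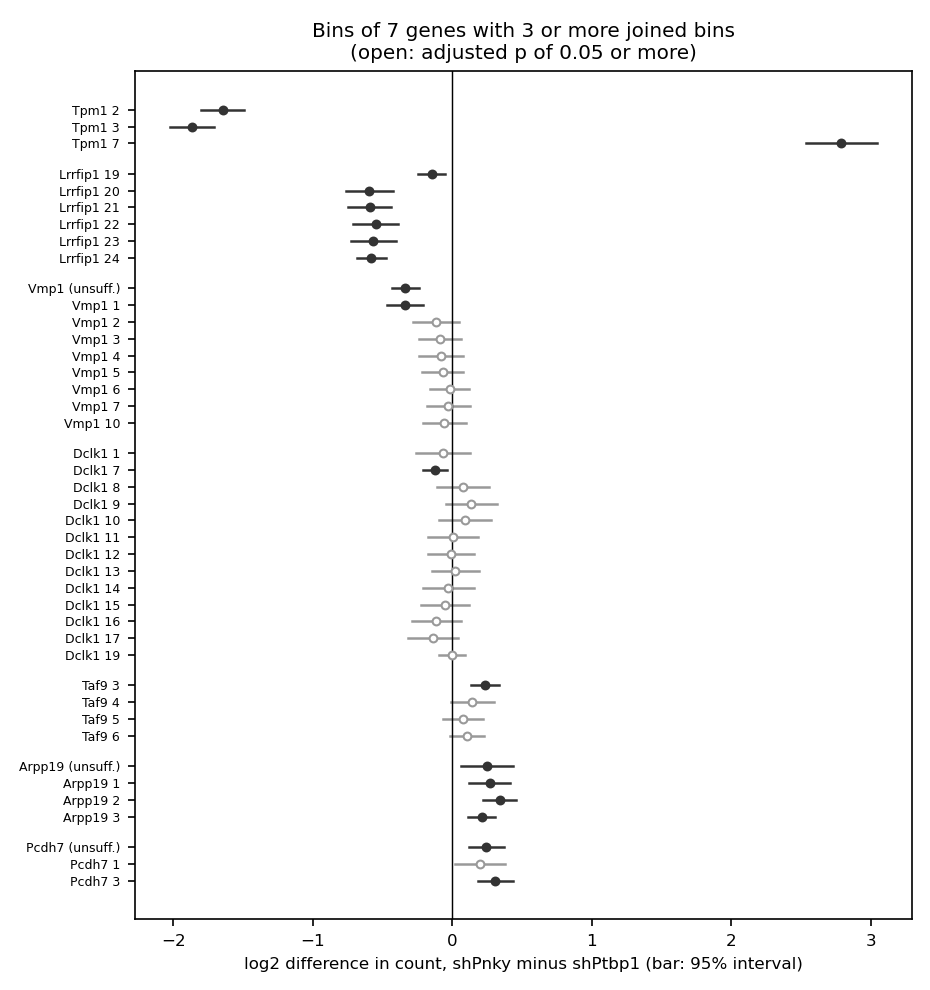
Log2 difference in scaled count (shPnky minus shPtbp1, horizontal axis) with its 95% interval for every joined bin of 7 genes with at least 3 joined bins; filled symbols have an adjusted p under 0.05. Tpm1 bins lie far to both sides of 0, 5 of the 6 Lrrfip1 bins lie between -0.55 and -0.59, and 12 of the 13 Dclk1 bins are open and close to 0.

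Gene lists by role gave the following counts, to be read against 31.4% of all bins higher and 30.5% lower in shPnky; several contain bins with opposite listed folds, whose difference the choice of bins built in. Of 44 actin cytoskeleton and adhesion genes, 6 had joined bins (13 bins): 10 were lower in shPnky, 2 higher and 1 did not pass, with a median log2 difference of -0.58 against -0.005 over all bins. The 10 lower bins belong to Tpm1, Fn1, Ctnnd1 and Lrrfip1, 6 of them to Lrrfip1 alone. The 2 higher bins were Tpm1 bin 7 and Cadm1 bin 10, and Sorbs3 bin 18 did not pass. Of 40 textbook PTBP1 targets, 4 were joined (6 bins), with 4 bins lower, Tpm1 bin 7 higher and the kinesin Kif1b bin 27 not passing (log2 difference 0.08, edgeR adjusted p = 0.200). Of 28 microtubule, motor and axon genes, 3 were joined (15 bins, 13 of them in Dclk1): 2 bins were lower, none higher, and 13 did not pass.

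Among 34 phosphatase inhibitors, kinases, calmodulins and signalling genes, 6 were joined (11 bins), with 7 bins higher in shPnky, 2 lower and 2 not passing, and a median log2 difference of 0.20. Of the 7 higher bins, 4 belong to Arpp19 alone. The other higher bins were Ntrk2 bin 13, which has opposite listed folds, Ensa bin 3 and the unsuffixed bin of Calm3. The lower bins were Ensa bin 2 and Araf bin 5, the latter with opposite listed folds. The unsuffixed bin of Calm3 (Entrez 12315), 1 of several genes for the same calmodulin protein, stood at 44384 and 45009 in shPnky, 39445 and 38337 in shPtbp1 and 40126 and 39989.8 in shCtrl (log2 difference 0.20, edgeR adjusted p = 7.30e-05). Calm3 bin 3 stood at 18077.5 and 18533.5 in shPnky, 17943 and 16990 in shPtbp1 and 15019 and 14677 in shCtrl. It did not pass (log2 difference 0.06, edgeR adjusted p = 0.236), and its difference was -0.04 with scaling by the plain sum. Neither Calm3 bin passed for usage (edgeR adjusted p = 0.184 for bin 3 and 0.612 for the unsuffixed bin). Of 37 genes of membrane trafficking, lysosome and endoplasmic reticulum, 7 were joined (16 bins), with 3 bins higher, 4 lower and 9 not passing. Chromatin and transcription genes gave 4 of 34 (8 bins), with 3 higher, 2 lower and 3 not passing. The splicing factors on the list that were joined were Luc7l and Luc7l2 (2 of 42 genes, 3 bins), and both higher bins are described above. Of 26 ribosomal and housekeeping genes, Rpl22 and Rpl5 were joined (3 bins), 2 bins lower and Rpl5 bin 8 not passing (log2 difference 0.09, edgeR adjusted p = 0.0843).

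Cell type markers were few among the joined bins. Of 25 neural stem cell and astrocyte markers, Gfap was joined (1 bin, higher in shPnky). Of 24 transit-amplifying cell and neuroblast markers, Dclk1 was joined (13 bins, 1 lower and 12 not passing). Of 18 oligodendrocyte-lineage markers, Ptprz1 was joined, and its bin 15 stood at 2475 and 2199 in shPnky and 2319 and 2290.3 in shPtbp1 (log2 difference 0.02, edgeR adjusted p = 0.852). None of 23 microglial, endothelial and mural markers and none of 11 ependymal markers had a joined bin. The labelled cell type could therefore be checked only through Gfap, which was abundant in all 6 libraries, and a difference in cell make-up between the knockdowns was not tested. In bulk RNA, fewer cells of a type and less RNA per cell cannot be told apart.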

How the data were processed

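The authors' deposited tables, 1 per knockdown, hold raw counts of reads per exon bin in 4 libraries and, per the file headers, the p-value and adjusted p-value of the authors' DEXSeq test, a log2 fold of usage, and scores of the fitted model. The submitters' processing notes name the build mm9 with TopHat2 2.0.10 and Cuffdiff 2.1.1 among the tools. For the counting program, annotation and DEXSeq version, nothing is given in the sources used here. Bins have no coordinates in the tables, so no position or sequence is given. Entrez numbers matched a GRCm38 gene table for 71 of 71 genes.

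Tables were joined by row name. Joined counts (lowest 64) were tested with glmQLFit and glmQLFTest of edgeR 4.0.16 (R 4.3.3) on the 4 knockdown libraries, with TMM scaling and adjustment over 118 bins. Printed levels were scaled over 6 libraries, which moves no difference by more than 0.0057 (log2). Usage was tested with diffSpliceDGE over 65 bins and 18 genes. Tested on simulated data, the count test recovered 24 of 24 bins changed by a log2 fold of 1 among 118 and called 0 of 94 others. The usage test recovered 14 of 14 among 65 and called 0 of 19 bins of genes with no changed bin (the rest, in genes with a changed bin, were not scored). The simulation gave all bins the same spread and held no smaller changes. It therefore cannot show how the tests do at differences near the median size of 0.21. The 2 libraries of a knockdown were no duplicates: their counts differed beyond sampling noise, with a chi-square per degree of freedom of 7.18 (shPnky) and 6.82 (shPtbp1). DESeq2 1.42.0, other scalings, thresholds and libraries left out were alternatives. Figures and summaries used Python 3.11.15.

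Members and lists were chosen with earlier results of these data known, and some lists hold genes that led those results. Named were the 10 highest and 10 lowest called differences (1 bin per gene), genes with 3 or more joined bins, the 10 genes leading the usage test, bins with opposite listed folds, up to 4 genes per list, and bins at each threshold. Sorbs3 and Cadm1 were added after their values were seen. Some genes that meet this rule are not reported here.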

Additional observations from a re-analysis of the deposited data

Results flagged for a closer look

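In 18 joined bins both libraries of one knockdown lay above both shCtrl libraries and both libraries of the other lay below them. These positions rest on TMM scaling over the joined bins and were not checked under other scalings. Those moved the median log2 difference between the knockdowns from -0.005 to -0.11 or 0.05. Placements close to the control may therefore depend on the scaling, such as Vmp1 bin 2 in shPnky (892 and 913 against 922 and 920 in shCtrl). Values are log2 differences in scaled count, shPnky minus shPtbp1. Both effects share the same controls, so the difference between them is this direct difference. For the 11 of the 18 bins listed with opposite usage folds, the choice of bins built it in.

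With shPtbp1 above and shPnky below the control there were 13 bins. The widest were Plod2 bin 13 (-1.98), Fn1 bin 21 (-1.90), Tpm1 bin 3 (-1.86), Tpm1 bin 2 (-1.65), Ctnnd1 bin 9 (-1.52) and Rtn4 bin 3 (-1.22). Limk2 bin 15 (-0.92), H2afy bin 3 (-0.91) and U05342 bin 1 (-0.88) followed. The last 4 had listed usage folds of the same sign in both tables: Kazn bin 7 (-0.43), Rpl22 bin 3 (-0.33), Ensa bin 2 (-0.20) and Vmp1 bin 2 (-0.12). Vmp1 bin 2 did not pass the direct test.

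With shPnky above and shPtbp1 below the control there were 5 bins: Tpm1 bin 7 (2.79), Luc7l bin 9 (0.78), Ncaph2 bin 19 (0.43), the unsuffixed bin of Pcdh7 (0.24) and that of Calm3 (0.20). The Pcdh7 bin stood at 3786 and 3193 in shPnky, 2850 and 3026 in shPtbp1 and 3073 and 3084 in shCtrl. The Pcdh7 bin passed the direct test (edgeR adjusted p = 0.000528), a call lost without the first shPnky library or either shPtbp1 library. Over the settings tried its log2 difference ranged from 0.13, without the first shPnky library, to 0.34. In the other bins with separate groups, both knockdowns lay above the control in 38 and below it in 36.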

How the results depend on the processing

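Of the 73 bins that differed in count, 45 were called in all 13 settings tried (18 higher, 27 lower). Among these 45 are 16 of the 17 bins with opposite listed folds. Their difference was built in by the choice of bins, so nothing is read from their being called throughout. The count was 75 with DESeq2's size factors, 70 with the sum of joined counts, 81 with scaling linked through shCtrl (47 higher, 34 lower), 69 with DESeq2, 63 at an adjusted p under 0.01 and 74 with 6 libraries in the fit. Leaving out 1 library gave 48 to 64 bins. A minimum mean count of 50 removed no bin, and 1 bin per gene left 53 of 71.

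The 14 usage calls were less stable: 30 with DESeq2, 6 at an adjusted p under 0.01, 18 with 6 libraries, and 4 to 10 without 1 library. The number of genes past the gene-level test, 7 in the report, was 6 to 8 in these refits, and 6 by the Simes test, which lost Vmp1. A library left out leaves an arm of 1, assumed to vary like the other. DESeq2 sets a bin against the other bins of its gene and edgeR against a mean that includes it.

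With the replicate number as a block, 66 bins passed for count (31 higher, 35 lower), 9 for usage and 7 genes. The libraries share only a number: same-numbered libraries deviated together with a correlation of 0.0067 over bins.

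With shares taken over all bins listed in each gene's own table, 3 share differences changed sign: Tpm1 bin 3 (20.7 percentage points), Tpm1 bin 2 (27.6) and Lrrfip1 bin 23 (0.0067). The table for shPtbp1 lists more bins of these genes, so the shares have other denominators. The shPnky shares did not change, and no direction between the knockdowns is read from these values. Another 8 share differences moved without a change of sign, and those of Lrrfip1, Ensa and Vmp1 are in the report. Those of Kazn were 10.7 (bin 7) and -6.73 (unsuffixed). Here too the denominators are unlike: shPtbp1 has more listed bins in Lrrfip1, Ensa and Kazn, and shPnky in Vmp1.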

Other observations

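Some joined bins that the rule for named genes left out differed as well; they were chosen after their values were seen. The unsuffixed bin of Ccnd1, the gene of cyclin D1, which drives entry into the cell cycle, was the most abundant of these. It stood at 172876 and 173030 scaled reads in shPnky, 138274 and 136680 in shPtbp1 and 233603 and 236228 in shCtrl (log2 difference 0.33, edgeR adjusted p = 5.51e-10), so both knockdowns lay under the control and shPtbp1 lower. Bin 11 of Fads3, a fatty acid desaturase family gene, stood at 1007 and 901 in shPnky, 1534 and 1454 in shPtbp1 and 713 and 722 in shCtrl (log2 difference -0.65, edgeR adjusted p = 1.48e-10).

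The unsuffixed bin of Syncrip, an RNA-binding protein, stood at 10507 and 9812 in shPnky, 8528 and 8504 in shPtbp1 and 12784 and 12700.3 in shCtrl (log2 difference 0.25, edgeR adjusted p = 9.74e-06). In Rgs17, a regulator of G protein signalling, the order was different: bin 5 fell further in shPnky, at 706 and 793, than in shPtbp1, at 940 and 1015, from 1627 and 1657 in shCtrl (log2 difference -0.39, edgeR adjusted p = 7.3e-05), a call not kept in every setting. Each of these genes had 1 joined bin, so use of the bin and level of the gene cannot be told apart from its counts. The authors' listed log2 usage folds against control were -0.013 in shPnky and -0.010 in shPtbp1 for Ccnd1. In the same order they were 0.104 and 0.098 for Fads3, -0.059 and -0.053 for Syncrip, and -0.058 and -0.070 for Rgs17. Whether the usage of these bins differed between the knockdowns was not tested. The calls for Ccnd1, Fads3 and Syncrip held in all settings tried.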
